A study of Homo sapiens with 6 samples.

Results

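The genes described here are those of glycolysis and of the cellular response to low oxygen, taken as a list of 35 gene symbols. Of these, 33 were listed in both deposited tables, out of 13002 genes in all, and EGLN3 and MXI1P1 were not listed. Of the 33, 31 passed the filter used for the tests (a mean of at least 1 RPKM, reads scaled by gene length and library depth, over the libraries compared), while PFKM and ENO2 did not. The list was grouped by role into hexose entry (5 genes), upper glycolysis (9), lower glycolysis (6), pyruvate and lactate handling (6) and hypoxia response (9 named, 7 listed).

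Total RNA was sequenced from OCI-AML2 cells, a human cell line established from an acute myeloid leukaemia. All 6 libraries came from cells that had received a short hairpin RNA by lentivirus and puromycin selection at 2.0 µg/mL for 3 days. The 3 groups of 2 libraries (A and B) carried TAZ shRNA1, TAZ shRNA2 or a control hairpin, which is called a scramble in the labels and GFP in the table columns. TAZ here is the gene with ID 6901, tafazzin, the transacylase that remodels cardiolipin in the inner mitochondrial membrane. Hairpins lower the RNA of the target without deleting the gene. Nothing in the labels says that A and B were separate cultures or infections, so the p-values below reflect only how far 2 libraries of a group lay apart, a spread that may be technical.

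Glycolysis turns glucose into pyruvate in the cytosol, and cells either pass pyruvate into mitochondria or reduce it to lactate and export it. When oxygen is scarce, prolyl hydroxylases of the EGLN family stop marking the HIF1A protein for destruction, HIF1A pairs with ARNT, and the pair activates many glycolytic genes together with genes of mitophagy, pH control and blood vessel growth. HIF1A is regulated mostly at the level of its protein, so its RNA level is not a readout of the activity of the factor. Leukaemia cells commonly run glycolysis at a high rate even with oxygen present.

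Each library held between 18821138 and 20978773 reads in listed genes. TAZ stood at 4.02 and 4.10 RPKM with shRNA1, at 1.47 and 2.13 RPKM with shRNA2 and at 11.3 and 11.9 RPKM in the control libraries. All 8 myeloid markers were listed, with SPI1 between 117 and 145 RPKM and CEBPA between 103 and 147 RPKM. MPO, the myeloperoxidase of granulocyte precursors, was at 5.16 and 4.63 RPKM with shRNA1 and 1.02 and 1.49 RPKM with shRNA2, against 11.2 and 10.1 RPKM in the control. The summed level of the 8 was 5093 to 5641 RPKM with shRNA1 and 3836 to 4583 RPKM with shRNA2, against 976 to 1128 RPKM in the control, a difference carried by LYZ, the lysozyme of phagocytes (5236 and 4742 RPKM with shRNA1 and 4221 and 3494 RPKM with shRNA2, against 786 and 676 RPKM). Of 5 lymphoid markers 3 were listed, with summed levels of 0.577 to 0.635 RPKM with shRNA1, 0.572 to 0.611 RPKM with shRNA2 and 1.28 to 2.19 RPKM in the control. None of 5 erythroid markers was listed, and of 5 stromal and epithelial markers only PECAM1 was, at 18.3 to 21.3 RPKM with shRNA1 and 16.6 to 22.7 RPKM with shRNA2, against 6.82 to 9.18 RPKM in the control. The part of these differences in the results below was not tested.

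The 33 listed genes spanned a wide range of levels. GAPDH, which oxidises glyceraldehyde 3-phosphate and passes its electrons to NAD, was the most abundant, at 3245 and 3030 RPKM with shRNA1, 2752 and 2633 RPKM with shRNA2, and 3729 and 3210 RPKM in control A and B. LDHB, LDHA, ALDOA, TPI1, PGAM1, ENO1, PGK1 and PKM followed, with group means between 306 and 966 RPKM. GPI came next with group means of 81.4 to 117 RPKM, and the group means of all other members were at most 63.0 RPKM. At the low end were ADM, ENO2 and PFKM. ENO2, the enolase of neurons, had 8 and 7 reads with shRNA1, 12 and 13 with shRNA2, and 56 and 13 in control A and B. PFKM, the muscle phosphofructokinase, stood between 0.333 and 0.578 RPKM in the 6 libraries.

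**Figure D1:**
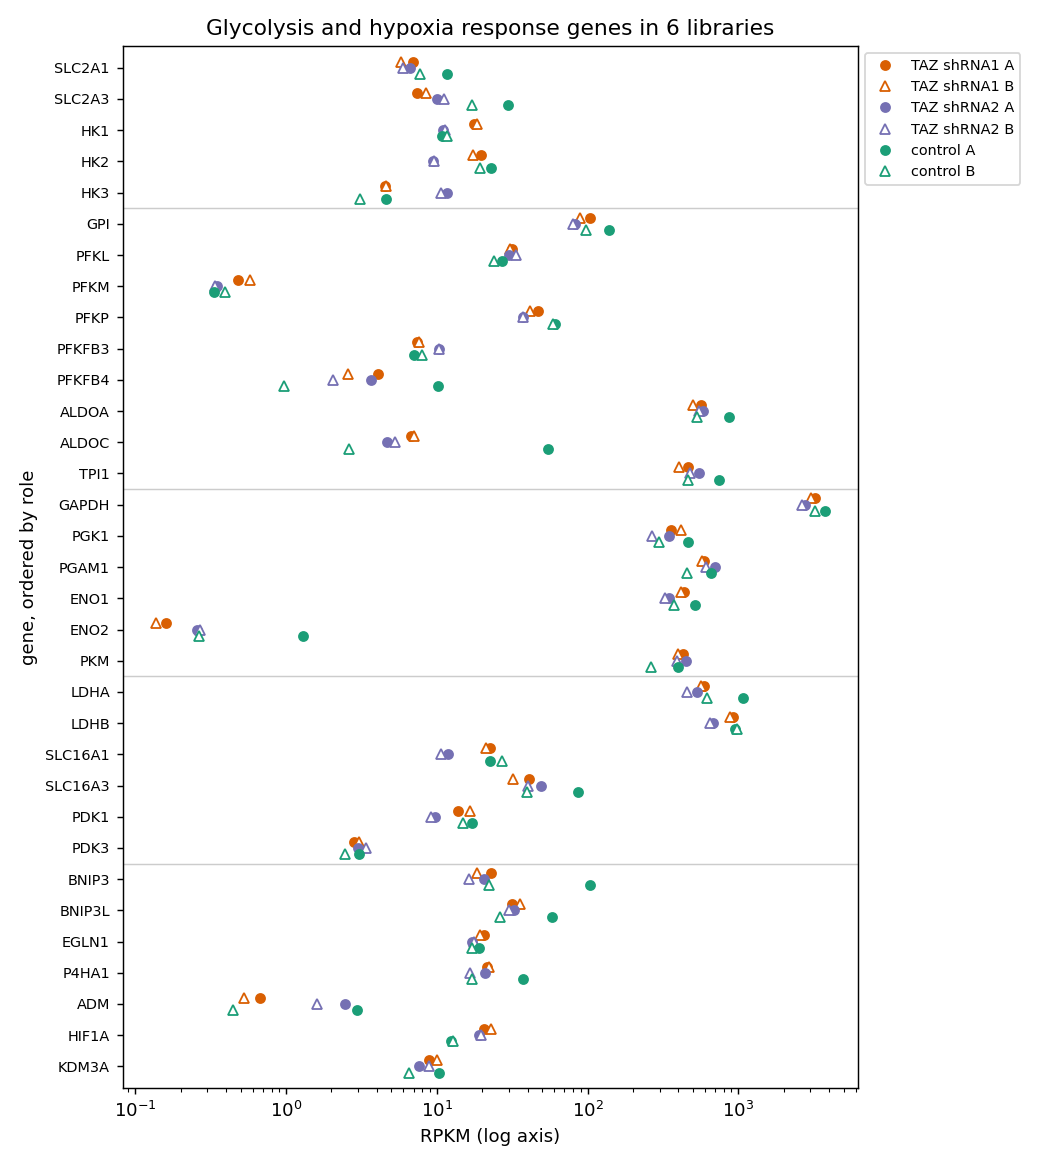
RPKM (log axis) of the 33 listed glycolysis and hypoxia response genes, 1 gene per row in order of role (grey lines divide the 5 role groups), with a point for each library: TAZ shRNA1 above, TAZ shRNA2 in the middle and control below, filled circles for library A and open triangles for library B. ALDOC, PFKFB4, ADM, ENO2 and BNIP3 show the widest gaps between the 2 control libraries, while HIF1A and PFKP are tight within each group.

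The 2 control libraries differed from each other for these genes, and the difference ran one way. Of 31 members, 14 were at least 1.5-fold higher in control A than in control B on the log2(RPKM + 0.5) scale and 0 were at least 1.5-fold lower, where 4.36% and 1.89% of all 10660 genes passed the same bounds. The median difference, control A minus control B, was 0.53 on the log2 scale over the members and -0.01 over all genes, and 26 of 31 members were higher in control A. With 1 library against 1 there is no test of this difference. PKM, at a log2 difference of 0.60, was the last gene inside the bound, and SLC2A1, at 0.56, the first outside it.

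Among tested members the widest gaps were those of an aldolase, a regulator of phosphofructokinase, a mitophagy receptor and a peptide hormone. ALDOC, the aldolase of brain, had 54.5 RPKM in control A and 2.63 RPKM in control B, a ratio of 20.7 on 1609 and 88 reads. PFKFB4, which sets the level of fructose 2,6-bisphosphate and so the pace of phosphofructokinase, had 10.2 RPKM in control A and 0.961 RPKM in control B, a ratio of 10.6. BNIP3, a mitophagy receptor of the outer mitochondrial membrane, had 104 RPKM in control A and 22.3 RPKM in control B, a ratio of 4.64. ADM, the vasodilator peptide adrenomedullin, had 2.97 RPKM in control A and 0.443 RPKM in control B, a ratio of 6.71 on 77 and 13 reads. These 4 genes were far lower in control B. BNIP3L, a second mitophagy receptor, P4HA1, a collagen prolyl hydroxylase, and SLC16A3, the lactate exporter, were each 2.16 to 2.24 times as high in control A as in control B.

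In the knockdown groups the same genes lay close between libraries. On the same log2(RPKM + 0.5) scale, 0 of 31 members with shRNA1 were at least 1.5-fold apart between library A and library B. Of all genes 0.572% were that much higher and 0.976% lower in A. The median difference was 0.08 and 19 members were higher in A. Without the added 0.5, the ratios of PFKFB4 with shRNA1 (1.58) and ADM with shRNA2 (1.52) passed 1.5. With shRNA2, 1 member (PFKFB4, 3.68 and 2.04 RPKM) was at least 1.5-fold higher in A and 0 were lower (all genes: 1.87% and 1.89%), the median was again 0.08 and 21 members were higher in A. Over all genes the SD of the A minus B difference was 0.21 with shRNA1, 0.29 with shRNA2 and 0.34 in the control, all on the log2 scale. By role, the median control difference was 1.11 for the hypoxia response, 0.59 for upper glycolysis, 0.53 for lower glycolysis, 0.50 for hexose entry and 0.22 for pyruvate and lactate handling. On the other side, SLC16A1 (22.4 and 27.1 RPKM in control A and B), PFKFB3 (7.05 and 7.99 RPKM) and HK1 (10.8 and 11.6 RPKM) had the lowest ratios among tested members, none of them past 1.5-fold.

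**Figure D2:**
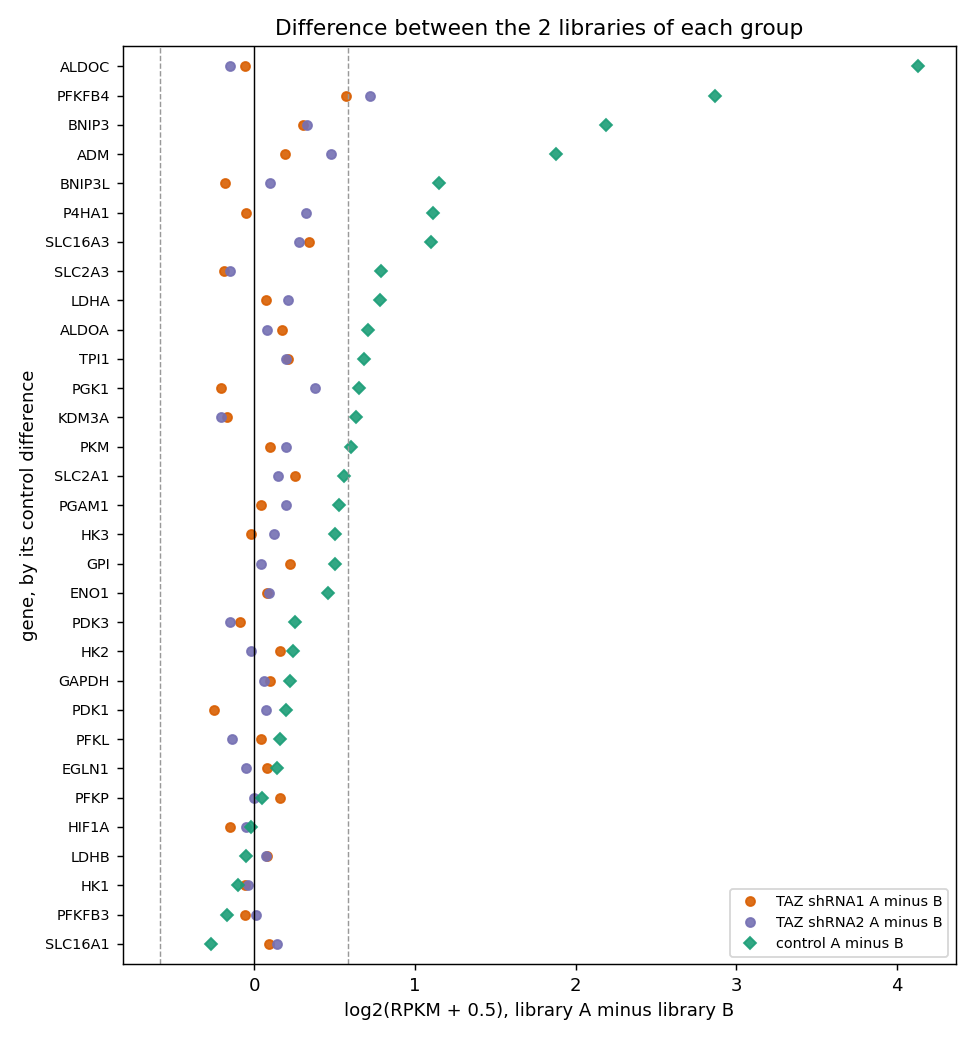
Difference between library A and library B on the log2(RPKM + 0.5) scale for the 31 tested members, ordered by the control difference, for TAZ shRNA1 and TAZ shRNA2 (circles) and the control (diamonds); dashed lines mark 1.5-fold either way. The control diamonds run out to 4.13 for ALDOC and 14 of them lie right of the upper line, whereas only PFKFB4 with shRNA2 does so among the knockdown points.

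A further list of 43 other genes induced by low oxygen or sensing it, of which 35 were listed, had a control A minus B median of 0.35 over 26 genes with a sufficient level, with 7 at least 1.5-fold higher in control A and 1 at least 1.5-fold lower. NDRG1, a stress-induced differentiation factor, had 72.8 RPKM in control A and 36.8 RPKM in control B. ZNF395, a zinc finger factor, stood at 33.2 and 14.1 RPKM. The other 5, ANKRD37, PLOD1, HILPDA, FAM162A and MIF, had ratios of 1.61 to 2.49 (these 7 genes are named after their values were seen). The 1 gene at least 1.5-fold lower in control A was VEGFA, the vessel growth factor, at 12.4 and 22.1 RPKM. Not every HIF target was thus higher in control A. Genes of the pentose phosphate pathway, glycogen and gluconeogenesis had a median control difference of 0.04, and genes of pyruvate dehydrogenase and other pyruvate handling one of -0.10.

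Because of this gap, the comparisons with the control are given with both control libraries and with each alone. With both, limma called 4 of 31 members with shRNA1 (2 rose and 2 fell), where 18.6% of all 10613 genes tested were called (9.99% rose, 8.58% fell). With shRNA2 it called 7 of 31 members (2 rose and 5 fell), where 15.7% of 10659 genes were called (8.12% rose, 7.61% fell). The share of members called was thus under that of all genes with shRNA1, and above it by few genes with shRNA2. At an unadjusted limma p under 0.05 there were 5 and 13 of 31 members with shRNA1 and shRNA2. Over all genes there were 3832 of 10613 and 3503 of 10659, to be read beside the unadjusted counts below. The median log2 fold change of the members was -0.14 with shRNA1 and -0.31 with shRNA2, beside 0.00 over all genes in each comparison. Without control A these medians were 0.11 and 0.10, and without control B they were -0.28 and -0.62. The split of the calls turned with the control used. Without control A, 11 of 30 members rose and 2 fell with shRNA1 (all genes: 16.2% and 14.9%), and 5 rose and 5 fell of 31 with shRNA2 (7.98% and 7.02%). Without control B, 2 rose and 14 fell with shRNA1 (20.7% and 20.7%), and 2 rose and 14 fell with shRNA2 (9.71% and 9.11%). Both comparisons use the same control libraries. In bulk RNA, fewer cells of a type and less RNA per cell cannot be told apart.

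**Figure D3:**
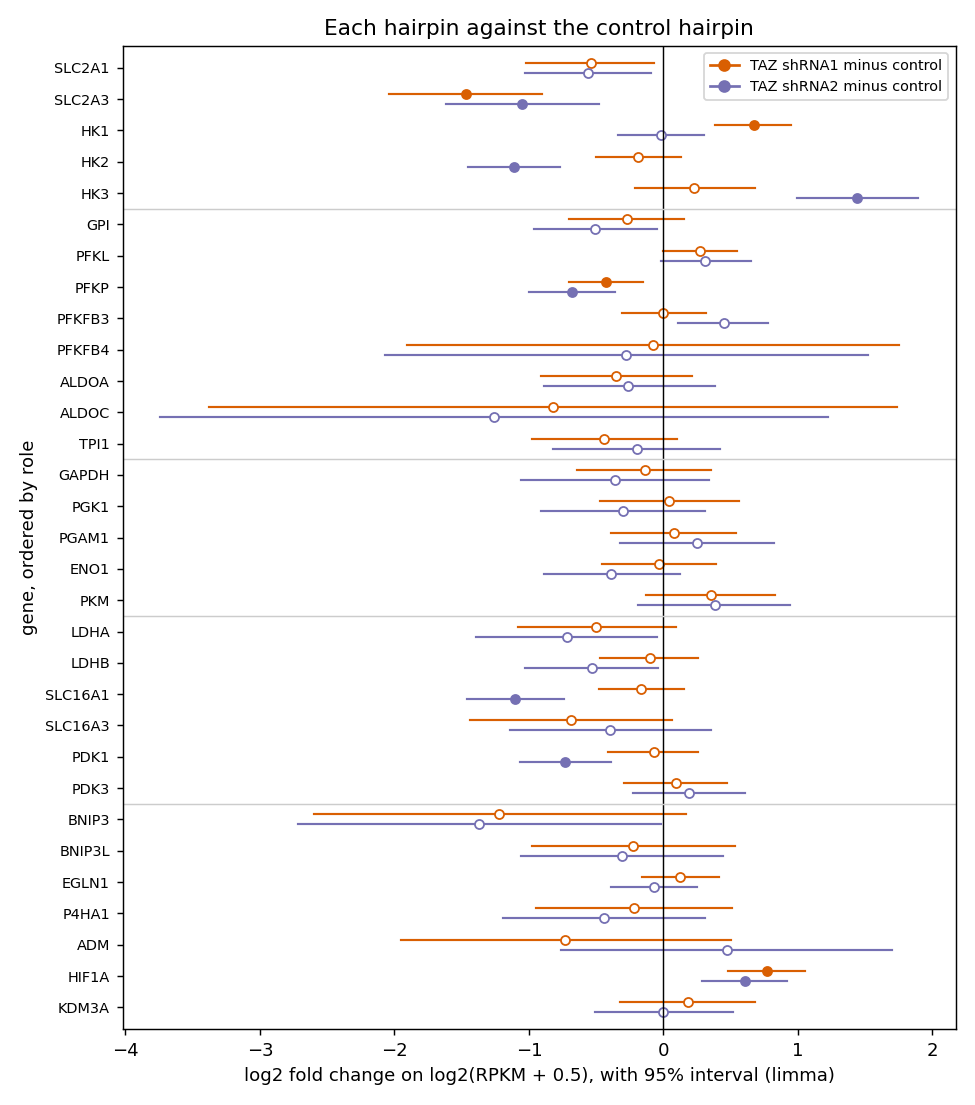
Log2 fold change on the log2(RPKM + 0.5) scale with its 95% interval from limma for the 31 tested members, TAZ shRNA1 minus control above and TAZ shRNA2 minus control below in each row; filled points have an adjusted p under 0.05 and open points do not. SLC2A3, PFKP and HIF1A are filled for both hairpins, HK1 for shRNA1 alone, and HK2, HK3, SLC16A1 and PDK1 for shRNA2 alone, while the intervals of ALDOC and PFKFB4 span more than 3 units.

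Of the genes for entry of glucose, SLC2A3, the high-affinity glucose transporter of neurons and leukocytes, fell with both hairpins, and the hexokinases, which trap glucose in the cell as glucose 6-phosphate, moved differently with each hairpin. With shRNA1 1 of 5 genes of this group rose and 1 fell (all genes: 9.99% and 8.58%), and with shRNA2 1 rose and 2 fell (8.12% and 7.61%). SLC2A3 had 7.33 and 8.41 RPKM with shRNA1 and 10.0 and 11.2 RPKM with shRNA2, against 29.8 and 17.0 RPKM in control A and B. All 4 knockdown libraries lay below both control libraries. Its log2 fold change was -1.47 with shRNA1 (SE 0.24, adjusted p = 0.0101 by limma) and -1.05 with shRNA2 (SE 0.25, adjusted p = 0.03). It was -1.07 and -0.66 against control B alone and -1.86 and -1.45 against control A alone. Those fits leave out the spread between the controls. With library A or B of the hairpin left out, the log2 fold change was -1.37 and -1.56 with shRNA1, and -0.98 and -1.13 with shRNA2.

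SLC2A1, the widely expressed basal glucose transporter, had 6.99 and 5.81 RPKM with shRNA1 and 6.66 and 5.95 RPKM with shRNA2, against 11.7 and 7.75 RPKM in control A and B. The knockdown libraries again lay below both control libraries, by little in the case of control B. The log2 fold change was -0.54 with shRNA1 (SE 0.20, adjusted p = 0.101) and -0.56 with shRNA2 (SE 0.20, adjusted p = 0.102), so neither passed. Against control A alone the values were -0.82 and -0.84 (adjusted p = 0.000377 and 0.0038), and against control B alone -0.26 and -0.28 (adjusted p = 0.201 and 0.397).

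HK1, the housekeeping hexokinase bound to mitochondria, rose with shRNA1. It had 17.7 and 18.5 RPKM with shRNA1 and 10.9 and 11.3 RPKM with shRNA2, against 10.8 and 11.6 RPKM in the control. The shRNA1 libraries stood clear of the other 4, and the shRNA2 libraries fell between the controls. HK1 changed by a log2 value of 0.67 with shRNA1 (SE 0.12, adjusted p = 0.0136) and -0.02 with shRNA2 (95% interval -0.34 to 0.30, adjusted p = 0.935). The call with shRNA1 was lost without shRNA1 A (adjusted p = 0.0642) and without shRNA1 B (adjusted p = 0.131), at log2 values of 0.62 to 0.71 over the libraries left out.

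HK2, the inducible hexokinase of tumours and a HIF target, fell with shRNA2. It had 19.5 and 17.3 RPKM with shRNA1 and 9.38 and 9.53 RPKM with shRNA2, against 22.8 and 19.3 RPKM in the control. The shRNA2 libraries were far below all others, and the shRNA1 libraries overlapped the controls. With shRNA2 its log2 fold change was -1.11 (SE 0.15, adjusted p = 0.00568), between -1.23 and -0.99 with any 1 library left out. With shRNA1 it was -0.19 (95% interval -0.50 to 0.13, adjusted p = 0.353).

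HK3, the hexokinase typical of myeloid cells, rose with shRNA2. It had 4.50 and 4.57 RPKM with shRNA1 and 11.7 and 10.7 RPKM with shRNA2, against 4.59 and 3.10 RPKM in the control. Only the shRNA2 libraries stood above both controls. The log2 fold change was 1.44 with shRNA2 (SE 0.19, adjusted p = 0.00581), between 1.19 and 1.69 with any 1 library left out, and 0.23 with shRNA1 (95% interval -0.21 to 0.68, adjusted p = 0.402). The myeloid marker LYZ, which the summed level above follows, was higher with both hairpins, and its part in the level of HK3 was not tested.

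In upper glycolysis, where hexose phosphates are rearranged and split, 1 of 8 tested genes fell and 0 rose with each hairpin, where 8.58% and 7.61% of all genes fell with shRNA1 and shRNA2. By limma-voom on recovered reads the counts were the same. At an unadjusted limma p under 0.05 they were 1 and 3 genes in either direction with shRNA1 and shRNA2. Over all genes these were 3832 of 10613 and 3503 of 10659. The gene that fell was PFKP, the platelet form of phosphofructokinase, which commits sugar to glycolysis. It had 46.9 and 41.8 RPKM with shRNA1 and 37.0 and 37.2 RPKM with shRNA2, against 60.7 and 58.7 RPKM in control A and B. No knockdown library reached the lower control. Its log2 fold change was -0.43 with shRNA1 (SE 0.12, adjusted p = 0.0454) and -0.68 with shRNA2 (SE 0.14, adjusted p = 0.019). The call with shRNA1 did not hold with quantile normalization (adjusted p = 0.0601) or without shRNA1 A (adjusted p = 0.15) or B (adjusted p = 0.415), and that with shRNA2 did not hold without shRNA2 B (adjusted p = 0.0555).

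PFKL, the liver form, was the other abundant phosphofructokinase. It had 31.4 and 30.5 RPKM with shRNA1 and 30.2 and 33.5 RPKM with shRNA2, against 27.0 and 24.1 RPKM in the control. All 4 knockdown libraries were above both controls, but the log2 fold changes of 0.27 and 0.31 did not pass (adjusted p = 0.141 and 0.176). PFKFB3, the inducible bifunctional enzyme that drives phosphofructokinase, had 7.36 and 7.67 RPKM with shRNA1 and 10.4 and 10.4 RPKM with shRNA2, against 7.05 and 7.99 RPKM in the control. The shRNA2 libraries alone were above both controls, by a log2 value of 0.45 that missed the threshold (SE 0.14, adjusted p = 0.0763), and with shRNA1 the log2 fold change was 0.00 (95% interval -0.31 to 0.32).

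For PFKFB4 and ALDOC the direction depended on which control was used. PFKFB4 had 4.04 and 2.57 RPKM with shRNA1 and 3.68 and 2.04 RPKM with shRNA2, against 10.2 and 0.961 RPKM in control A and B. All 4 knockdown libraries lay between the controls. Its log2 fold change was -1.51 and -1.71 against control A alone but 1.35 and 1.16 against control B alone with shRNA1 and shRNA2, each with an adjusted p of 0.00876 or less. ALDOC had 6.76 and 7.09 RPKM with shRNA1 and 4.70 and 5.28 RPKM with shRNA2, against 54.5 and 2.63 RPKM in control A and B. Its log2 fold change was -2.89 and -3.33 against control A alone and 1.25 and 0.81 against control B alone, each with an adjusted p of 0.0147 or less, while with both controls neither gene passed (adjusted p between 0.444 and 0.949). A fit with 1 control library takes the spread from the 2 libraries of that hairpin and the variance prior of limma. It leaves out the spread between the controls and assumes that the lone library varies like those of the hairpin.

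The remaining upper enzymes were GPI, which isomerises glucose 6-phosphate, ALDOA, the main aldolase, and TPI1, which interconverts the triose phosphates. ALDOA had 563 and 500 RPKM with shRNA1 and 583 and 550 RPKM with shRNA2, against 866 and 528 RPKM in control A and B. TPI1 had 467 and 403 RPKM with shRNA1 and 550 and 480 RPKM with shRNA2, against 747 and 465 RPKM. For both genes the knockdown libraries were close to control B and all were under control A. GPI had 103 and 88.4 RPKM with shRNA1 and 82.5 and 80.2 RPKM with shRNA2, against 138 and 97.1 RPKM. The log2 fold changes of these 3 genes lay between -0.51 and -0.20 and none passed (adjusted p between 0.118 and 0.639).

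Lower glycolysis is where ATP and pyruvate are made. By limma without the library letter as a block, 0 of its 5 tested genes passed with either hairpin. Of all genes, 18.6% were called with shRNA1 and 15.7% with shRNA2. In this group 0 had an unadjusted p under 0.05 and limma-voom on recovered reads also called 0. PKM, the pyruvate kinase that forms the last step, had 427 and 399 RPKM with shRNA1 and 451 and 392 RPKM with shRNA2, against 399 and 263 RPKM in the control. Its log2 fold change was 0.35 (95% interval -0.13 to 0.83) and 0.38 (95% interval -0.19 to 0.94). ENO1, the main enolase, had 438 and 416 RPKM with shRNA1 and 345 and 324 RPKM with shRNA2, against 514 and 372 RPKM. PGK1, the first ATP-forming enzyme, had 358 and 414 RPKM with shRNA1 and 346 and 266 RPKM with shRNA2, against 467 and 299 RPKM. PGAM1, the phosphoglycerate mutase, had 589 and 572 RPKM with shRNA1 and 701 and 611 RPKM with shRNA2, against 663 and 458 RPKM. For these 5 genes at least 1 library of each knockdown group lay within the range of the controls, except GAPDH and ENO1 with shRNA2, which were below both. GAPDH had log2 fold changes of -0.14 (95% interval -0.64 to 0.35) and -0.36 (95% interval -1.06 to 0.34). These abundant enzymes have many processed pseudogenes, so their counts are uncertain where reads could be split.

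Of 6 genes of pyruvate and lactate handling, 2 fell with shRNA2, SLC16A1 and PDK1, and 0 rose (all genes: 7.61% and 8.12%). With shRNA1 limma called 0 of 6 (all genes: 18.6%), as did limma-voom, and 0 had an unadjusted p under 0.05. SLC16A1, the widespread proton-coupled carrier of lactate and pyruvate, had 22.6 and 21.2 RPKM with shRNA1 and 11.8 and 10.7 RPKM with shRNA2, against 22.4 and 27.1 RPKM in the control. The shRNA2 libraries were far below the others. With shRNA2 the change was -1.10 on the log2 scale (SE 0.15, adjusted p = 0.00626), between -1.24 and -0.97 with any 1 library left out, and -0.17 with shRNA1 (95% interval -0.48 to 0.15, adjusted p = 0.394). Its antisense neighbour SLC16A1-AS1 stood at 0.752 to 1.34 RPKM, and reads of the pair cannot be told apart since no strand setting was stated.

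PDK1, the kinase that shuts pyruvate dehydrogenase and a HIF target, had 13.9 and 16.6 RPKM with shRNA1 and 9.66 and 9.21 RPKM with shRNA2, against 17.2 and 14.9 RPKM in the control. The shRNA2 libraries were below all others and the shRNA1 libraries overlapped the controls. The log2 fold change was -0.73 with shRNA2 (SE 0.15, adjusted p = 0.0185), not called without shRNA2 B (adjusted p = 0.0694), and -0.07 with shRNA1 (95% interval -0.41 to 0.26). PDK3, a second kinase of that complex, stood between 2.47 and 3.39 RPKM in the 6 libraries, with log2 fold changes of 0.09 and 0.19.

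LDHA, the lactate dehydrogenase subunit favoured in glycolytic cells and a HIF target, had 590 and 564 RPKM with shRNA1 and 533 and 459 RPKM with shRNA2, against 1067 and 622 RPKM in control A and B. All knockdown libraries were below both controls. The log2 fold change was -0.50 with shRNA1 (SE 0.25, adjusted p = 0.193) and -0.72 with shRNA2 (SE 0.29, adjusted p = 0.129). Against control A alone it was -0.89 and -1.11 (adjusted p = 6.8e-06 and 0.0499), and against control B alone -0.11 and -0.33 (adjusted p = 0.479 and 0.609). LDHB, the other subunit, had 923 and 874 RPKM with shRNA1 and 684 and 651 RPKM with shRNA2, against 948 and 983 RPKM, with log2 fold changes of -0.10 (adjusted p = 0.657) and -0.53 (adjusted p = 0.129). SLC16A3, the lactate exporter of glycolytic cells, had 40.7 and 32.1 RPKM with shRNA1 and 48.8 and 40.3 RPKM with shRNA2, against 85.8 and 39.8 RPKM. Its knockdown libraries were all well below control A and around control B, and neither comparison passed (adjusted p = 0.167 and 0.423).

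In the hypoxia response group 1 of 7 tested genes rose and 0 fell with each hairpin, by limma and by limma-voom, where 9.99% and 8.12% of all genes rose with shRNA1 and shRNA2, and at an unadjusted p under 0.05 there were 1 and 2 genes. The gene that rose was HIF1A itself, the oxygen-regulated subunit of the factor. It had 20.6 and 22.9 RPKM with shRNA1 and 19.1 and 19.7 RPKM with shRNA2, against 12.5 and 12.7 RPKM in the control. The groups did not overlap, and the controls were nearly equal. The log2 fold change was 0.77 with shRNA1 (SE 0.12, adjusted p = 0.00897) and 0.61 with shRNA2 (SE 0.13, adjusted p = 0.0262). The call was lost without shRNA1 B (adjusted p = 0.085), without shRNA2 A (adjusted p = 0.0722) and without shRNA2 B (adjusted p = 0.122), at log2 values of 0.69 to 0.84 and 0.58 to 0.63. The listed antisense gene HIF1A-AS2 stood at 0.0236 to 0.652 RPKM.

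BNIP3 had 22.8 and 18.4 RPKM with shRNA1 and 20.6 and 16.3 RPKM with shRNA2, against 104 and 22.3 RPKM in control A and B. The knockdown libraries were near control B and far under control A. The log2 fold change was -1.22 (95% interval -2.60 to 0.17, adjusted p = 0.18) with shRNA1 and -1.37 (95% interval -2.72 to -0.02, adjusted p = 0.146) with shRNA2. Against control A alone it was -2.31 and -2.47, and against control B alone -0.12 and -0.28 (adjusted p = 0.547 and 0.414). BNIP3L, a related mitophagy receptor, had 31.3 and 35.4 RPKM with shRNA1 and 32.5 and 30.3 RPKM with shRNA2, against 58.3 and 26.1 RPKM, all between the controls.

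EGLN1, the main oxygen-sensing prolyl hydroxylase, varied little, at 20.4 and 19.3 RPKM with shRNA1 and 17.0 and 17.6 RPKM with shRNA2, against 19.0 and 17.2 RPKM in the control. Its log2 fold change was 0.12 (95% interval -0.16 to 0.41) with shRNA1 and -0.07 (95% interval -0.39 to 0.25) with shRNA2. P4HA1 had 21.4 and 22.1 RPKM with shRNA1 and 20.9 and 16.6 RPKM with shRNA2, against 37.5 and 17.2 RPKM. KDM3A, a histone demethylase induced by HIF, had 8.83 and 9.97 RPKM with shRNA1 and 7.64 and 8.92 RPKM with shRNA2, against 10.4 and 6.51 RPKM. ADM had 0.669 and 0.523 RPKM with shRNA1 and 2.45 and 1.61 RPKM with shRNA2, against 2.97 and 0.443 RPKM. For KDM3A and ADM every knockdown library fell between the controls, and none of these 4 genes passed in either comparison.

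Counted over the group of 31, all 4 knockdown libraries lay below both controls for 5 members (SLC2A1, SLC2A3, PFKP, LDHA and LDHB), where 19.7% of all genes did, and above both for 2 (PFKL and HIF1A), where 21.2% did. They lay between the controls for 5 members (PFKFB4, ALDOC, BNIP3L, ADM and KDM3A), where 2.87% of all genes did. For shRNA1 by itself both libraries lay below both controls for 5 members (32.5% of all genes), above both for 4 (33.5%) and between them for 11 (11.9%). For shRNA2 these counts were 12 (31.1%), 4 (31.0%) and 9 (8.30%). Against control A alone, 12 members were at least 1.5-fold lower with shRNA1 and 17 with shRNA2, where 10.5% and 11.1% of all genes were, and 2 members were as much higher with each (10.0% and 10.6%). Set against control B alone, 1 member (SLC2A3) was at least 1.5-fold lower with shRNA1 and 5 (SLC2A3, HK2, PFKP, SLC16A1 and PDK1) with shRNA2, where 7.19% and 9.22% of all genes were. In the other direction, 5 and 6 members were at least 1.5-fold higher than control B alone, where 7.86% and 9.87% of genes were, and ALDOC, PFKFB4, PKM and HIF1A were among them with each hairpin. These counts against single libraries have no test.

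**Figure D4:**
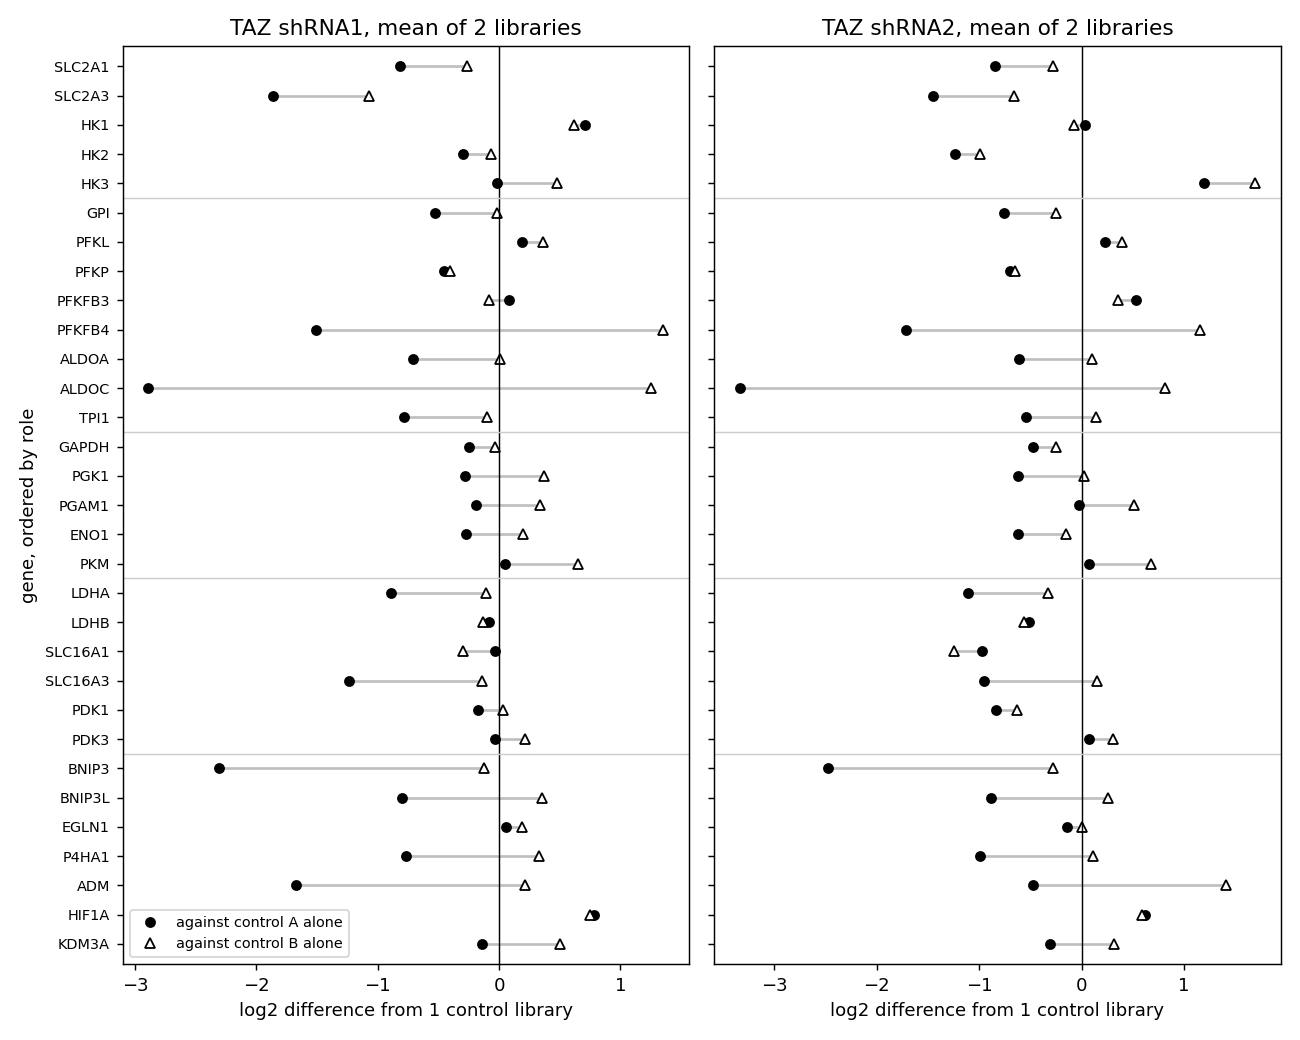
Log2 difference of the mean of the 2 knockdown libraries from control A alone (filled circles) and from control B alone (open triangles), log2(RPKM + 0.5) scale, for the 31 tested members in order of role, TAZ shRNA1 on the left and TAZ shRNA2 on the right. Long grey bars that cross 0, as for ALDOC and PFKFB4, mark genes whose direction turns with the control library, and short bars, as for HIF1A and PFKP, mark genes for which either control gives nearly the same value.

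The hairpins were also compared with each other in 1 fit of all 6 libraries, in which the difference itself does not use the control levels. Of 31 members, 5 differed (1 higher and 4 lower with shRNA2), where 10.9% of 10660 genes were called (4.78% higher, 6.10% lower). HK3 was higher with shRNA2 than with shRNA1, at a log2 difference of 1.21 (SE 0.17, adjusted p = 0.00497). HK2 was lower, at -0.92 (SE 0.13, adjusted p = 0.00472), as was SLC16A1 at -0.93 (SE 0.13, adjusted p = 0.00494). The other 2 lower genes were HK1, at -0.69 (SE 0.12, adjusted p = 0.00944), and PDK1, at -0.66 (SE 0.14, adjusted p = 0.0209). For each of these 5 genes both shRNA2 libraries lay outside the range of both shRNA1 libraries. When a shRNA1 or shRNA2 library was left out, fewer calls were made over all genes as well, so the losses given next are not particular to these 5 genes. Each of the 5 calls was lost when some shRNA1 library was left out, HK2 without shRNA1 A alone (adjusted p = 0.0654), the others without either shRNA1 library (adjusted p up to 0.206), at log2 values that kept their sign. HK1 was also lost without shRNA2 A (adjusted p = 0.0558) and PDK1 without shRNA2 A or B (adjusted p = 0.0786 and 0.0925). For PFKFB3 the difference was 0.45 (SE 0.12, adjusted p = 0.0556), and it passed with quantile normalization, with the gene length trend removed and by limma-voom. The genes called against the control with both hairpins were not called between them, with 0.41 for SLC2A3 (95% interval -0.11 to 0.94), -0.25 for PFKP (95% interval -0.52 to 0.02) and -0.16 for HIF1A (95% interval -0.43 to 0.11). The SE of this fit includes the spread between the controls, wide for SLC2A3 (29.8 and 17.0 RPKM). Its shRNA2 libraries (10.0 and 11.2 RPKM) both lay above its shRNA1 libraries (7.33 and 8.41 RPKM). The median over members was -0.17, beside -0.01 over all genes.

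Shares within gene families were compared per library, since RPKM is per gene length. HK2 made up 46.7% and 42.9% of hexokinase RPKM with shRNA1 and 29.4% and 30.3% with shRNA2, against 59.6% and 56.6% in control A and B. HK3 made up 10.8% and 11.3% with shRNA1 and 36.5% and 33.9% with shRNA2, against 12% and 9.12% in control A and B. The 3 hexokinases were thus near equal in share in the shRNA2 libraries, whereas HK2 led in the control libraries, and the summed RPKM of the family was 41.7 and 40.4 with shRNA1, 31.9 and 31.4 with shRNA2, and 38.2 and 34.0 in the control. Among phosphofructokinases PFKP held 59.5% and 57.4% with shRNA1 and 54.8% and 52.4% with shRNA2, against 69.0% and 70.6% in the control. Of the glucose transporter pair SLC2A1 held 48.8% and 40.9% with shRNA1 and 39.9% and 34.6% with shRNA2, against 28.1% and 31.3%. For the shares of HK2, PFKP and SLC2A1 both controls lay outside the range of the 4 knockdown libraries.

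In other families the control libraries stood apart from each other. PFKFB4 held 35.5% and 25.1% of PFKFB RPKM with shRNA1 and 26.1% and 16.4% with shRNA2, against 59.0% and 10.7% in control A and B. LDHA held 39.0% and 39.2% of lactate dehydrogenase RPKM with shRNA1 and 43.8% and 41.4% with shRNA2, against 53.0% and 38.7%. SLC16A1 held 35.7% and 39.8% of the monocarboxylate carrier pair with shRNA1 and 19.4% and 20.9% with shRNA2, against 20.7% and 40.5%. For these shares no knockdown group lay wholly outside the range of the controls. ALDOC was 5.92% of aldolase RPKM in control A and between 0.495% and 1.40% elsewhere. With 2 libraries against 2, an exact permutation test of a share could not pass the threshold, so none was run.

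**Figure D5:**
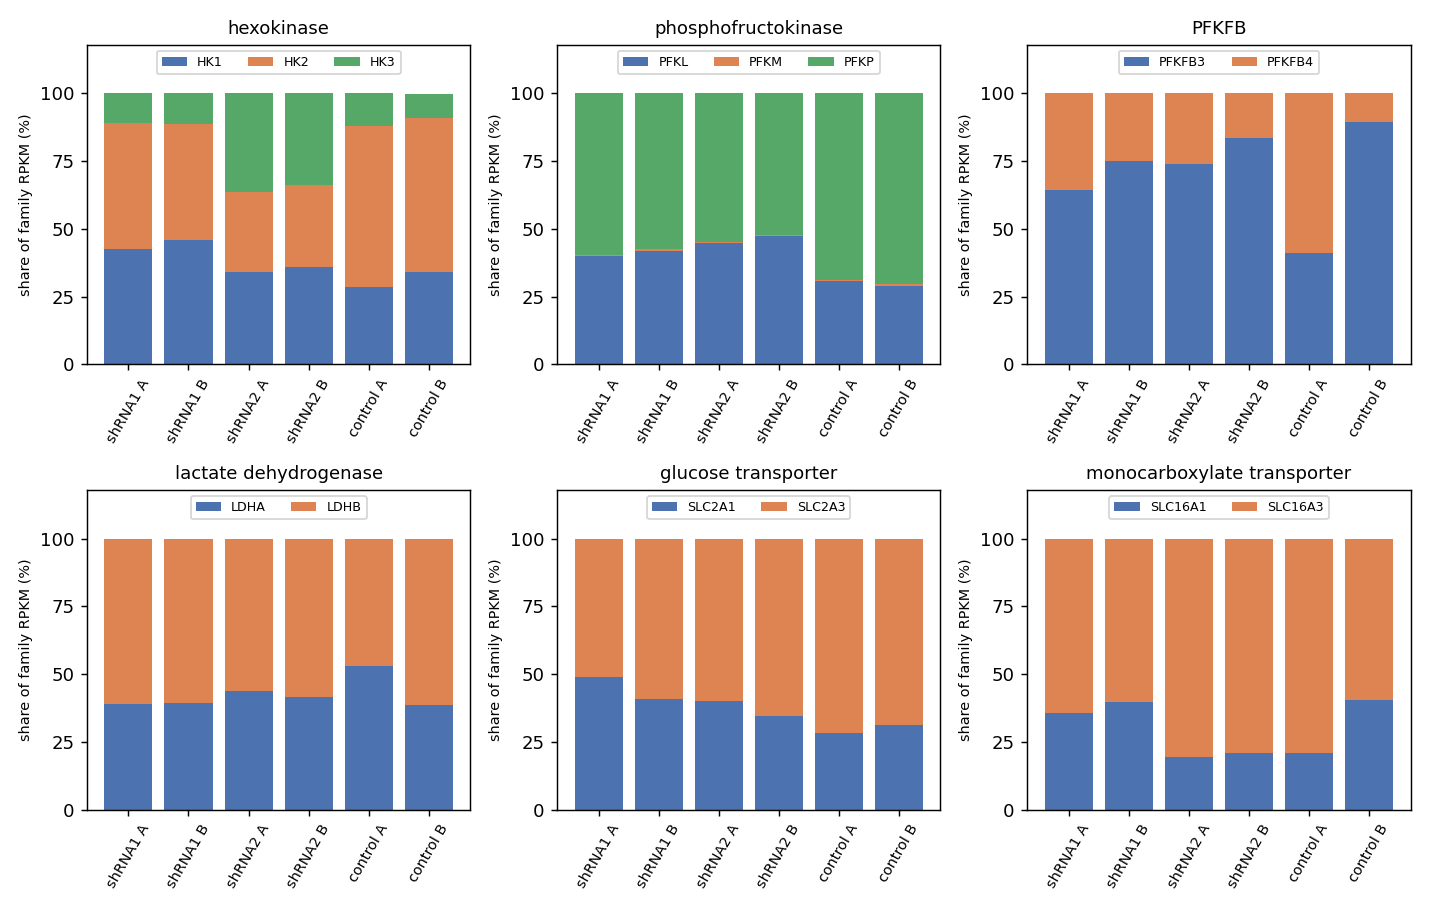
Share of each gene in the summed RPKM of its family (percent, bars from 0 to 100) in the 6 libraries, TAZ shRNA1 left, TAZ shRNA2 in the middle and control right, for hexokinases, phosphofructokinases, PFKFB enzymes, lactate dehydrogenases, glucose transporters and monocarboxylate carriers. HK3 takes 36.5% and 33.9% of the hexokinase bar in the shRNA2 libraries, and PFKFB4 takes 59.0% of its bar in control A against 10.7% in control B.

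Promoters of some members are shown because HIF1A with ARNT is known to bind the core letters ACGTG or GCGTG. Windows of 250 bases before each annotated start were read from RefSeq on GRCh38.p14, which is not the build of the deposited tables, and 31 of the member genes were in that table with 59 starts. The letters ACGTG or GCGTG, on either strand, occurred in 34 of 59 member windows (57.6%) and in 43.2% of all 35116 windows. ACGTG alone occurred in 35.6% and 18.5%, and CACGTG, which holds ACGTG on both strands and is also the E-box bound by MYC, in 11.9% and 6.34%. A match is a description of letters and not a site. Of the members called with shRNA2 with a match, HK2 (chr2:74834920-74835169, plus strand) and PDK1 (chr2:172555840-172556089, plus strand) are shown. PFKP and HIF1A, also called, had a match in some of their windows and are not shown, and HK3, also called, had none. BNIP3 (chr10:131981924-131982173, minus strand), ALDOC (chr17:28576896-28577145, minus strand) and LDHA (chr11:18394313-18394562, plus strand) were added after their values were seen, for their gap between the controls. PFKFB4, ADM and P4HA1 had wider gaps than LDHA, and their windows, with 1 match each, are not shown. SLC16A3 also had a wider gap, and its windows, with 0 to 3 matches by start, are not shown either. BNIP3L and SLC2A3, with wider gaps too, had no window to read. Whether matches go with the gap was not tested. Capitals mark either motif or its reverse complement, and a run CACGTG is an overlap of both strands.
HK2: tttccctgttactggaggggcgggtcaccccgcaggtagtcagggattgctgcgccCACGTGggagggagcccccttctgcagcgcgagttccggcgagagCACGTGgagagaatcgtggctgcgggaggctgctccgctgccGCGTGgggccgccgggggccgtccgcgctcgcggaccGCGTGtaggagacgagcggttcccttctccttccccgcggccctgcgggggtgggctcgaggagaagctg
PDK1: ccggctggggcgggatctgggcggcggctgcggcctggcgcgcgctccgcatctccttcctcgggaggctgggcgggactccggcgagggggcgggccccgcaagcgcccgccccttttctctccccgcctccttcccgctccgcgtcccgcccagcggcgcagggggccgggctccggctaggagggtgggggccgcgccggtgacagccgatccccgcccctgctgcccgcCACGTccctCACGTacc
BNIP3: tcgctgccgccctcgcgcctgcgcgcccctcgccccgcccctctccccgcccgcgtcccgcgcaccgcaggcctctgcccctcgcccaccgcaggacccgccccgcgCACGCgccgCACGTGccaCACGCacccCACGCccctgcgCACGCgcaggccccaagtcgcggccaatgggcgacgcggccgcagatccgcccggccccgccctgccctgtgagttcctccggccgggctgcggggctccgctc
ALDOC: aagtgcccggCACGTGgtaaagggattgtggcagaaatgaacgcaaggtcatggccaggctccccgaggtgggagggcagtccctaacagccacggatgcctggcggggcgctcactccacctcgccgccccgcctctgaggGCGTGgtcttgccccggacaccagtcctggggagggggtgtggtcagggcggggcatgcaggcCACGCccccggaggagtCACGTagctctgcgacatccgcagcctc
LDHA: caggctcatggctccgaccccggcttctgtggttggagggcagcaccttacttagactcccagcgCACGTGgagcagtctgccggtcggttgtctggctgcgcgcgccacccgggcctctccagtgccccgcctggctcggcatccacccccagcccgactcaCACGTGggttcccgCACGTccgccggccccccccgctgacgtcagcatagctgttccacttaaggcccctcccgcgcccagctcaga
HK2 has another start (chr2:74833877-74834126) with 3 matches in its window, PDK1 another with 0 and LDHA another with 1. The BNIP3 window holds 5 separate runs in capitals, those of HK2 and ALDOC 4, that of LDHA 3 and that of PDK1 2. In PDK1 they lie next to the start, the nearest 8 bases before it. SLC2A3 and SLC16A1 are named only.

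Among the 26 other hypoxia genes tested with shRNA1, 4 rose and 2 fell (all genes: 9.99% and 8.58%), and among 25 with shRNA2, 0 rose and 6 fell (8.12% and 7.61%; limma, with 12 genes at an unadjusted p under 0.05 in either direction and 1 rise by limma-voom). Their medians were -0.02 and -0.04. VEGFA had 5.42 and 4.93 RPKM with shRNA1 and 2.16 and 2.18 RPKM with shRNA2, against 12.4 and 22.1 RPKM in control A and B. It fell with both hairpins, at log2 fold changes of -1.59 with shRNA1 (SE 0.25, adjusted p = 0.00851) and -2.68 with shRNA2 (SE 0.25, adjusted p = 0.00245). DDIT4, an inhibitor of mTORC1 that several stresses induce, had 17.3 and 17.3 RPKM with shRNA1 and 14.4 and 11.2 RPKM with shRNA2, against 36.5 and 53.4 RPKM. Its log2 fold changes were -1.33 (adjusted p = 0.00563) and -1.76 (adjusted p = 0.00409). Both were higher in control B than in control A, unlike most members. CXCR4, the chemokine receptor that keeps cells in bone marrow, rose with shRNA1 by 1.14 on the log2 scale (adjusted p = 0.0053) and fell by 0.75 with shRNA2 (adjusted p = 0.0346), the second call lost without control A (adjusted p = 0.0948) and without shRNA2 B (adjusted p = 0.119). ARNT, the partner of HIF1A, had 22.4 and 23.4 RPKM with shRNA1 and 19.1 and 22.0 RPKM with shRNA2, against 12.7 and 15.2 RPKM. Its log2 fold change was 0.70 with shRNA1 (adjusted p = 0.0153, but 0.0527 without shRNA1 A and 0.11 without shRNA1 B) and 0.55 with shRNA2, where it did not pass (adjusted p = 0.0525).

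Of 19 genes of the pentose phosphate pathway, glycogen and gluconeogenesis, 5 rose with shRNA1 (among them FBP1, GYS1, PYGB and UGP2) and 0 fell (all genes: 9.99% and 8.58%), with 8 at an unadjusted p under 0.05 and 2 falls by limma-voom. With shRNA2 4 rose (among them FBP1, GYS1 and UGP2) and 1 fell (RPIA), where 8.12% and 7.61% of all genes did, and the medians of the list were 0.13 and 0.10. FBP1, the gluconeogenic phosphatase that opposes phosphofructokinase, had 8.88 and 8.37 RPKM with shRNA1 and 5.66 and 4.29 RPKM with shRNA2, against 3.09 and 1.92 RPKM in control A and B, at log2 fold changes of 1.63 (adjusted p = 0.00461) and 0.88 (adjusted p = 0.0429). GYS1, the glycogen synthase of most tissues, rose by 0.84 and 0.88 (adjusted p = 0.0485 and 0.0464), and UGP2, which makes UDP-glucose, by 0.41 and 0.74 (adjusted p = 0.0427 and 0.0179). With control B left out, the shRNA2 values were 0.60 for FBP1 and 0.50 for GYS1, and neither passed (adjusted p = 0.0589 and 0.0804). Without shRNA1 A, and likewise without shRNA1 B, 1 of the 5 rises with shRNA1 was called, that of FBP1. With shRNA2 the calls of FBP1 and UGP2 were lost without shRNA2 A (adjusted p = 0.131 and 0.0559) and that of GYS1 without shRNA2 B (adjusted p = 0.0987).

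Of genes of the pyruvate dehydrogenase complex and other pyruvate handling, 0 of 20 passed with shRNA1 by limma or by limma-voom. Limma called 18.6% of all genes in that comparison, and 5 of the 20 had an unadjusted p under 0.05. With shRNA2 1 of 19 fell, where 7.61% of all genes did. That gene was PDP2, a phosphatase that reactivates the complex, at 2.72 and 3.04 RPKM with shRNA2 against 4.36 and 5.53 RPKM in the control (log2 fold change -0.68, adjusted p = 0.0408, lost without control B at 0.104, without shRNA2 A at 0.141 and without shRNA2 B at 0.102). PDP1, the companion phosphatase, had log2 fold changes of 0.31 and 0.39, LDHD, a mitochondrial D-lactate dehydrogenase, 0.47 and 0.44, and DLD, the dihydrolipoamide dehydrogenase subunit, 0.22 and 0.19. None of these 3 passed (adjusted p between 0.116 and 0.412).

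In the authors' deposited table, 2 of 33 members were higher and 9 lower with shRNA1 over the control at an adjusted p under 0.05, where 18.8% and 17.1% of all genes in the authors' deposited table were. With shRNA2, 5 were higher and 12 lower there, beside 19.9% and 18.9% of all genes. Those called there and not by limma included BNIP3, at a log2 fold change of -1.34 with shRNA1 and -1.50 with shRNA2, and LDHA, at -0.51 and -0.73, in the authors' deposited table. ENO2 was lower with shRNA1 there, at -2.18. BNIP3 and ENO2 are genes for which control A stood apart from the other 5 libraries.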

How the data were processed

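RNA was measured in 6 libraries of OCI-AML2 cells, 2 for each of TAZ shRNA1, TAZ shRNA2 and a control hairpin. Per the submitters' processing notes, edgeR 3.8.6, DESeq 1.18.0, HTSeq 0.6.1p2, TopHat2 2.0.11, Trim Galore 0.4.0 and build hg19 were used, in roles that are not stated. For each hairpin the authors deposited a table that holds, per the file headers, RPKM per library and the authors' log2 fold change, average log2 CPM, p-values and a likelihood-ratio score. The sources used here state neither the rule by which genes were listed nor the strand setting. Both tables hold identical control columns. Of 13004 listed genes, 2 exact repeats were dropped and 21 date-like symbols were renamed through their gene ID. Each column was assigned to a library through the title of its table and its letter.

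Values were transformed to log2(RPKM + 0.5), which understates the change of low genes. Genes whose mean reached 1 RPKM in the libraries of a fit were tested with limma 3.58.1 in R 4.3.3 (prior variance trend, two-sided, Benjamini-Hochberg over all genes tested, threshold 0.05), each hairpin against the control in 4 libraries and the hairpins against each other in all 6. The scripts were tested on simulated data. RPKM values were whole multiples of what 1 read is worth, which gave whole reads for 100.0% of genes within 0.05 reads (12937 genes with a single solution), used for depth and for limma-voom. Alternatives were pseudocounts of 0.1 and 2, no filter or a filter at 5 RPKM, quantile normalization, removal of a gene length trend, limma-voom, robust empirical Bayes, the library letter as a block and each library left out. The members, the lists and the tests were chosen with earlier results of these data known. Values per library were to be given for members called in any comparison, members that open or control a step and those with the widest control gaps. The other members are given as well because the control libraries differ for them. Of each other list, up to 4 genes with the smallest value of the larger adjusted p are described, and 1 gene that this rule names is not reported here. Where reads could be split between near-identical copies (GAPDH, LDHA, PGK1, ENO1, TPI1, PGAM1, BNIP3, and SLC2A3 with its paralog SLC2A14) the counts are uncertain. Promoter sequences are those of RefSeq on GRCh38.p14, and no coordinates on hg19 are given.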

Additional observations from a re-analysis of the deposited data

Results flagged for a closer look

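The 5 members whose response differed between the hairpins in the direct test, given as TAZ shRNA2 minus TAZ shRNA1 on the log2 scale, were HK1 (-0.69), HK2 (-0.92), HK3 (1.21), SLC16A1 (-0.93) and PDK1 (-0.66), each with an adjusted p under 0.05 by limma. TAZ itself had 1.47 and 2.13 RPKM with shRNA2, against 4.02 and 4.10 RPKM with shRNA1 (limma, adjusted p = 0.00801). Like each of the 5 calls above, that of TAZ was lost when some shRNA1 library was left out. It was lost without shRNA1 A and without shRNA1 B, at log2 differences of -1.01 and -0.99. Whether that difference in TAZ or another property of the hairpins goes with the 5 genes was not tested.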

How the results depend on the processing

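With the library letter as a replicate block, limma called 10 of 31 members with shRNA1 (4 without it), 17 with shRNA2 (7) and 8 between the hairpins (5), where 35.6%, 39.1% and 22.5% of all genes were called. SLC2A1, LDHA and BNIP3 were called with both hairpins under the block alone, as were TPI1, SLC16A3 and ADM with shRNA1, and GPI, PFKFB3, GAPDH, PGK1, ENO1, PKM and LDHB with shRNA2. The labels do not pair the letters, and A minus B differences correlated between groups at 0.26 to 0.423 over 10660 genes. Leaving out 1 library at a time gave 1 to 16 calls with shRNA1 (1 and 2 without shRNA1 B or A, 13 and 16 without control A or B), 4 to 16 with shRNA2 (16 without control B, 4 without shRNA2 B) and 0 to 8 between the hairpins (0 without shRNA1 A, 1 without shRNA1 B, 3 without shRNA2 A, 8 without control B), and medians of -0.62 to 0.10 with shRNA2 and of -0.19 to -0.06 between the hairpins. Over all genes, too, more were called when a control library was left out, except with shRNA2 without control A, where fewer were. The shares of all genes without a control library stand beside the member counts above for shRNA1 and shRNA2. Fewer were also called over all genes in each comparison whenever a shRNA1 or shRNA2 library was left out. A call lost in such a fit is therefore not particular to that member. Whether members lost calls more often than other genes was not tested. A fit without 1 library assumes that the lone library varies like the others. Why calls were lost or gained in these fits was not tested.

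Quantile normalization left 9 members at least 1.5-fold apart between the controls, against 14. The share of all genes past that bound after quantile normalization is not given, so the 9 cannot be set beside it. The median difference, control A minus control B, was then 0.39 over the members and -0.03 over all genes. Signs turned for values near 0 or set by the control gap. With shRNA1, PFKFB4 (-0.08) was 0.01 with a pseudocount of 0.1 and 0.10 by limma-voom, PFKFB3 was 0.00 with a pseudocount of 2, -0.06 with quantile normalization, -0.14 with the length trend removed and -0.01 by limma-voom, and EGLN1 was -0.07 with the length trend removed. Between the hairpins SLC2A1 was 0.02 with the length trend removed. With 1 library left out, the ranges with shRNA1 were -1.51 to 1.35 for PFKFB4, -2.89 to 1.25 for ALDOC, -0.08 to 0.08 for PFKFB3, -0.20 to 0.05 for PDK1 and -0.02 to 0.48 for HK3. With shRNA2 they were -1.71 to 1.16 for PFKFB4, -3.33 to 0.81 for ALDOC, -0.14 to 0.00 for EGLN1 and -0.07 to 0.03 for HK1. Between the hairpins they were -0.14 to 0.11 for SLC2A1, -0.56 to 0.17 for PFKFB4 and -0.32 to 0.01 for BNIP3. Outside the block and the libraries left out, 344 of 356 values of named members kept their direction and their side of the threshold. ENO2, PFKM and ADM rest on few reads.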
